A study of Rattus norvegicus with 45 samples.

Results

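The genes described here are 34 genes of oligodendrocytes and myelin, chosen by name, with earlier results of these data known. They cover myelin proteins (Mbp, Mog, Mag, Mobp, Cnp, Mal, Cldn11, Opalin, Ermn, Gjb1, Tspan2, Pllp and Omg), enzymes of myelin lipid and acetate metabolism (Ugt8, Fa2h and Aspa), transcription factors (Sox10, Olig1, Olig2, Myrf and Nkx6-2), other proteins abundant in oligodendrocytes (Tf, Car2, Ndrg1, Gpr37, Bcas1, Qdpr, Sirt2, Evi2a, Lpar1 and Gsn) and markers of precursor cells (Pdgfra, Cspg4 and Gpr17). Each gene was represented by the probe set of its own symbol with the highest mean over all arrays. Of the 34 genes, 32 had such a probe set, out of 14218 genes with one on the array. Tf had only probe sets that it shares with another gene, and none carried the symbol Gpr17, so neither was analysed here. Olig2 lay under the filter on low values, which left 31 genes to be tested, of which 29 mark mature cells or their lineage (called mature genes here) and 2 mark precursors.

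Oligodendrocytes wrap axons of the brain in myelin, a stack of membrane that is rich in galactolipids and held together by a small set of abundant proteins. They arise from precursor cells that carry the PDGF alpha receptor and the NG2 proteoglycan. The transcription factors Sox10, Olig1, Olig2, Nkx6-2 and Myrf act at successive steps of that path, with Myrf needed for the expression of most myelin genes. Striatum is crossed by bundles of myelinated axons, and the grey matter of cortex holds fewer of them.

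Haloperidol acts mainly by blocking dopamine D2 receptors, while risperidone blocks receptors of both dopamine and serotonin. Male Sprague-Dawley rats received risperidone at 5 mg/kg/d (5 rats), haloperidol at 0.25 mg/kg/d (5 rats) or vehicle, dilute acetic acid in water (5 rats), from osmotic minipumps implanted at 9 to 11 weeks of age. After 21 days of delivery, striatum, hippocampus and frontal cortex were taken and their RNA was hybridized to an Affymetrix rat array, which gave 45 arrays in 9 groups with 31099 probe sets each. The same 15 rats gave all 3 regions, all 3 treatments had a pump, and every rat was a separate animal without a genetic change. Animal numbers in the labels run in blocks by treatment, 52 to 60 for risperidone, 41 to 50 for haloperidol and 32 to 36 for vehicle, so any order of handling that followed them cannot be told apart from treatment.

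Striatum and hippocampus carried markers of their own neurons, and no such marker is given here for frontal cortex. Drd1, the dopamine D1 receptor of striatal projection neurons, had log2 values of 10.48 to 11.85 in striatum, against 6.03 to 7.64 in hippocampus and 5.99 to 7.85 in frontal cortex. Prox1, a transcription factor of dentate granule cells, ranged from 9.06 to 9.69 in hippocampus, against 6.39 to 7.02 in striatum and 5.99 to 6.76 in frontal cortex. On 8 arrays the markers of a neighboring tissue averaged over 1.0 log2 unit above the mean of their region: choroid plexus and meninges on 1 risperidone, 1 haloperidol and 1 vehicle array of striatum and 1 risperidone array of hippocampus, olfactory bulb on 2 and striatal neurons on 1 risperidone array of frontal cortex, and pyramidal neurons on 1 risperidone array of striatum. Array medians lay between 87.93 and 92.06 in striatum, between 106.71 and 110.37 in hippocampus and between 89.93 and 93.09 in frontal cortex. The sources used here do not say whether the regions were normalized together, so differences between regions are also given relative to the median of all probe sets.

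Promoters of 24 of the 34 genes could be matched by symbol in RefSeq (build GRCr8), each running from 250 bases before to 50 bases after a start that its promoter table sets. Of 25 such promoters (Mbp has 2), 17 were counted from the outer end of the gene as RefSeq bounds it and 8 from a start inside it, among them Mag (89 bases inside) and Opalin (233 bases inside). The letters CTGGCAC, a core recognised by Myrf, stood on either strand in 5 of these 24 promoters (20.8%), namely Mag, Opalin, Mal, Cnp and Olig2, and in 4.75% of all 33469 promoters. CTGGTAC, its other form, was present in 1 promoter (4.17%, Cldn11), against 2.16% of all. ACAAAG, letters that Sox proteins recognise, stood in 5 of 24 (20.8%), against 18.8% of all, and CANNTG, the E-box read by Olig proteins, in 18 of 24 (75%), against 72.1% of all. The promoters of Mag, Opalin and Cnp held both CTGGCAC and ACAAAG, and are shown here because these 3 genes, a myelin adhesion protein, a sialylated membrane protein and a phosphodiesterase of non-compact myelin, recur in the results. Capitals mark the letters of CTGGCAC and ACAAAG as they fall on the strand of the gene, where GTGCCAG and CTTTGT are their reverse complements. A match of letters is a description and not a site of binding, and no 2 of the marked stretches overlapped.
Mag, chr1:95290995-95291294, minus strand: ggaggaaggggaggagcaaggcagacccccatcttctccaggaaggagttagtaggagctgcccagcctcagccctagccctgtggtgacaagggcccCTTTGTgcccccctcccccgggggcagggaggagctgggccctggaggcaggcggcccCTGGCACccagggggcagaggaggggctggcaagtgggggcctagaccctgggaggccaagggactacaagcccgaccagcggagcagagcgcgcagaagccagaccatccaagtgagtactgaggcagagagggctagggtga
Opalin, chr1:249858141-249858440, minus strand: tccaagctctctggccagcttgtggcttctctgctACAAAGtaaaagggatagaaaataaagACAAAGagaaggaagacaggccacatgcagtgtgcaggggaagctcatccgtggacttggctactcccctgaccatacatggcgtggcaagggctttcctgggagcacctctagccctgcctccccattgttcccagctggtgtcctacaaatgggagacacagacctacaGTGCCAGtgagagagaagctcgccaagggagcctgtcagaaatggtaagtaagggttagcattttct
Cnp, chr10:86011254-86011553, plus strand: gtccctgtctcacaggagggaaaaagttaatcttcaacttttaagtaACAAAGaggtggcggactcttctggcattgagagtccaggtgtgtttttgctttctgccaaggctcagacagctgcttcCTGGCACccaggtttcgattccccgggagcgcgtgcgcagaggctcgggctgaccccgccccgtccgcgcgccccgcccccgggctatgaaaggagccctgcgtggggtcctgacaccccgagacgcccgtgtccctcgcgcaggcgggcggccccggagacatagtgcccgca
CTGGCAC began at position -94 of Mag and -124 of Cnp, and GTGCCAG at -17 of Opalin, counted from the start that each window uses.

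After risperidone, oligodendrocyte and myelin genes had estimates above vehicle in all 3 regions, yet no single gene passed the test. A gene was called at an adjusted p under 0.05 over all 18609 probe sets tested and a difference of at least 1.2-fold. In frontal cortex 30 of 31 genes lay above vehicle, with a median difference of 0.16 on the log2 scale, against 0.01 for all probe sets, of which 54.0% lay above 0. In hippocampus 31 of 31 lay above vehicle (median 0.34, against 0.01 for all probe sets with 55.3% above 0), and in striatum 30 of 31 (median 0.23, against -0.02 with 42.6% above 0). Single rats moved these medians: that of frontal cortex was 0.27 without risperidone replicate 5 and 0.10 without vehicle replicate 5, and that of striatum was 0.15 without risperidone replicate 5. The genes were measured on the same arrays, so these counts are not counts of independent observations. In RNA of bulk tissue fewer cells of a type and less RNA per cell cannot be told apart, and the same holds for more cells and more RNA.

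With limma 0 of 31 genes were called after risperidone in frontal cortex, where 3.4% of all probe sets were called, and 5 genes had an unadjusted p under 0.05, against 22.7% of all probe sets. In hippocampus 0 genes were called (0.113% of all probe sets) and 21 had an unadjusted p under 0.05 (16.6% of all). In striatum 0 genes were called (3.65% of all probe sets) and 8 had an unadjusted p under 0.05 (22.4% of all). All of these 5, 21 and 8 genes lay above vehicle. The lowest adjusted p was that of Gjb1 in each region, at 0.0969 in frontal cortex, 0.137 in hippocampus and 0.0716 in striatum. With arrays weighted by their quality 6 genes were called in hippocampus (Qdpr, Sox10, Ugt8, Pllp, Gjb1 and Gpr37). In striatum 3 were called without risperidone replicate 4 (Qdpr, Ndrg1 and Gjb1) and 1 without risperidone replicate 1 (Gjb1). The share of all probe sets called under these settings is not given here.

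The genes of the next paragraphs on the drugs that the rule for named genes did not pick, Gjb1, Sox10, Opalin, Ermn, Cnp and Mobp, were chosen after their values were seen. Gjb1 encodes connexin 32, a gap junction protein of myelin. In frontal cortex its log2 values were 6.95, 6.99, 6.67, 6.64 and 6.53 after risperidone and 6.38, 6.24, 6.49, 6.51 and 6.33 after vehicle. All 5 risperidone rats lay above all 5 vehicle rats, the lowest (6.53) just above the highest vehicle rat (6.51). This held for 1 of 31 genes in that region, near the share of all probe sets (2.86%). The difference was 0.37 (SE 0.14, 1.29-fold). In hippocampus Gjb1 had 6.95, 7.29, 6.96, 7.36 and 7.13 after risperidone, against 6.61, 6.55, 7.03, 6.92 and 6.52 after vehicle, a difference of 0.42 (SE 0.14), and the groups overlapped. In striatum the values were 7.14, 7.56, 7.70, 7.01 and 7.60 after risperidone and 6.81, 6.83, 7.28, 7.19 and 6.88 after vehicle, a difference of 0.41 (SE 0.14), again with overlap.

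In hippocampus the risperidone rats lay wholly above the vehicle rats for 6 of 31 genes (Qdpr, Sox10, Ndrg1, Sirt2, Omg and Opalin), against 2.85% of all probe sets. Qdpr, a dihydropteridine reductase abundant in oligodendrocytes, had log2 values of 11.54, 11.68, 11.65, 11.74 and 11.73 after risperidone and 11.24, 11.30, 11.41, 11.37 and 11.31 after vehicle, a difference of 0.34 (SE 0.12, adjusted p = 0.154). The lineage factor Sox10 had 8.03, 7.98, 8.07, 7.99 and 8.13 after risperidone, against 7.68, 7.46, 7.91, 7.62 and 7.80 after vehicle (0.34, SE 0.11, adjusted p = 0.140). Opalin, a membrane protein of mature oligodendrocytes, had the largest difference of the 31 genes in this region. Its values were 10.28, 10.25, 10.15, 9.93 and 10.17 after risperidone and 9.49, 9.47, 9.92, 9.53 and 9.71 after vehicle, a difference of 0.53 (SE 0.23, 1.44-fold, adjusted p = 0.236), and the lowest risperidone rat (9.93) lay just above the highest vehicle rat (9.92). Ndrg1, known in humans for its need in peripheral myelin, had 10.32, 10.23, 10.26, 10.28 and 10.21 after risperidone, against 9.82, 9.94, 10.05, 9.95 and 9.85 after vehicle (0.34, SE 0.14, adjusted p = 0.209). Sirt2, a tubulin deacetylase of myelin, had 10.48, 10.54, 10.59, 10.57 and 10.49 after risperidone, against 10.29, 10.28, 10.44, 10.25 and 10.41 after vehicle (0.20, SE 0.08, adjusted p = 0.232). For Ugt8, the enzyme that makes the myelin lipid galactosylceramide, the groups overlapped, with 9.81, 9.85, 9.66, 9.85 and 9.59 after risperidone and 8.96, 9.11, 9.69, 9.25 and 9.18 after vehicle, and the difference was 0.52 (SE 0.18, adjusted p = 0.153). In striatum 0 of 31 genes had all risperidone rats above all vehicle rats, against 1.06% of all probe sets.

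By role, the myelin proteins had median differences after risperidone of 0.19 in frontal cortex, 0.34 in hippocampus and 0.30 in striatum. The 3 lipid and acetate enzymes had medians of 0.23, 0.37 and 0.20 in the same order of regions, the 4 tested transcription factors 0.15, 0.33 and 0.21, and the 9 other oligodendrocyte proteins 0.16, 0.34 and 0.25. The 2 precursor markers stayed nearest to vehicle in every region, with medians of 0.08, 0.03 and 0.03. Of these, Cspg4 averaged 5.97 over all arrays, just above the filter on low values at 5.88. The part of that low level in its small differences was not tested. Mobp, a protein of compact myelin, was by its chosen probe set the only gene below vehicle in frontal cortex (-0.10, SE 0.12). Pdgfra was the only one in striatum (-0.01, SE 0.09). Mbp, the basic protein that seals compact myelin, differed by 0.05 in frontal cortex, 0.10 in hippocampus and 0.05 in striatum (SE 0.06 each). Its chosen probe set averaged 14.15 over all arrays, near the highest value of the whole table (14.79). The part of that high level in its small differences was not tested. For Mbp and Mobp the drug differences of their other probe sets are not given here.

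After haloperidol the estimates were also above vehicle for nearly all of the genes, and 0 were called. The comparisons of haloperidol and risperidone with vehicle share the same vehicle rats, so a low or high vehicle group enters both. In frontal cortex 30 of 31 genes lay above vehicle (median 0.34, against -0.04 for all probe sets with 34.6% above 0), in hippocampus 31 (median 0.23, against 0.00 with 47.5% above 0) and in striatum 30 (median 0.25, against -0.02 with 41.2% above 0). The median of hippocampus was 0.34 without haloperidol replicate 4. In frontal cortex 0 genes were called with limma (0.177% of all probe sets), with 18 at an unadjusted p under 0.05 (13.6% of all). In hippocampus 0 were called (0% of all probe sets), with 4 at an unadjusted p under 0.05 (3.76% of all), and in striatum 0 were called (0.339% of all), with 7 at an unadjusted p under 0.05 (15.4% of all). The lowest adjusted p of the genes was 0.167 in frontal cortex (Cnp), 1.00 in hippocampus and 0.180 in striatum (Ermn).

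Ermn encodes ermin, a cytoskeletal protein of the outer myelin layers. In frontal cortex it had 9.35, 9.24, 9.69, 10.12 and 9.71 after haloperidol and 9.07, 9.24, 9.21, 9.28 and 8.65 after vehicle, a difference of 0.53 (SE 0.19, 1.44-fold, adjusted p = 0.208). In striatum it had 10.13, 10.75, 10.58, 10.27 and 10.83 after haloperidol, against 9.85, 9.83, 10.34, 9.88 and 10.06 after vehicle (0.52, SE 0.19). The groups overlapped in both regions. Cnp in frontal cortex had 11.41, 11.26, 11.88, 12.04 and 11.79 after haloperidol and 11.09, 11.45, 11.29, 11.36 and 10.81 after vehicle, a difference of 0.48 (SE 0.15), with 2 haloperidol rats inside the vehicle range. No gene had all haloperidol rats above all vehicle rats in any region, where 1.23% of all probe sets did so in frontal cortex, 0.462% in hippocampus and 0.779% in striatum. The precursor markers had medians of 0.07 in frontal cortex, 0.05 in hippocampus and 0.03 in striatum, and Mbp differed by 0.17, 0.07 and 0.09 in the same regions (SE 0.06 each).

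**Figure D1:**
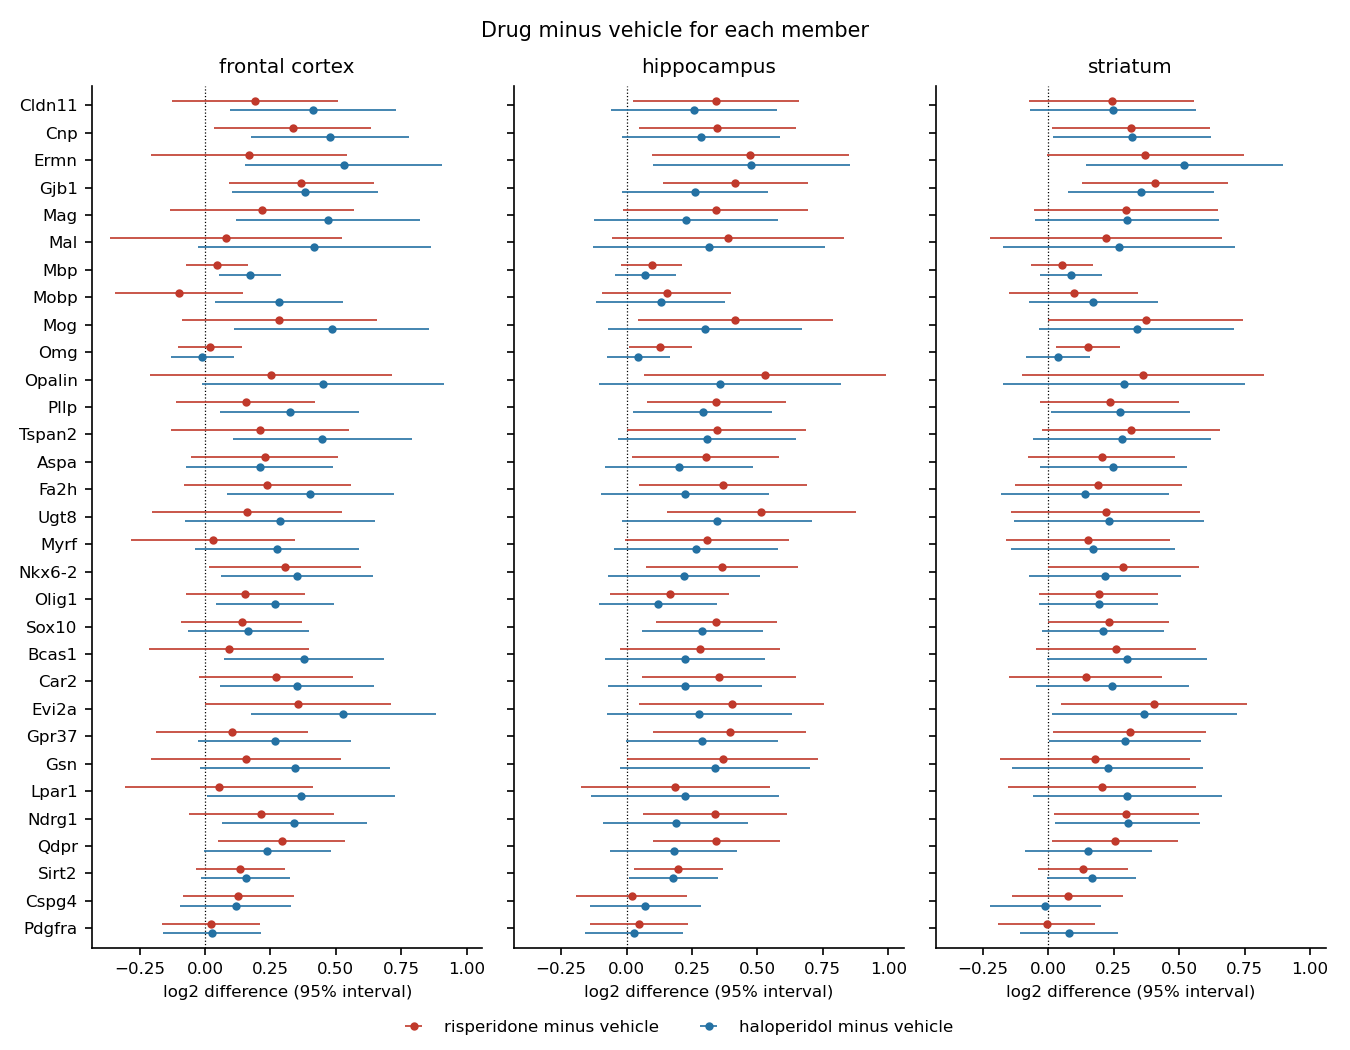
Drug minus vehicle on the log2 scale for the 31 tested genes in each region, with 95% intervals from limma, risperidone in red above haloperidol in blue. Most points lie right of 0, the precursor markers Cspg4 and Pdgfra, Omg and Mbp lie near it, and 0 genes were called.

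Set against each other, the 2 drugs did not differ beyond the threshold for any of the 31 genes. In frontal cortex 27 of 31 genes were lower after risperidone than after haloperidol by the estimate, with 4 above (median -0.16), 0 called (0.768% of all probe sets) and 2 at an unadjusted p under 0.05 (20.1% of all). Those 2 were Mobp and Mbp, each by its chosen probe set. Mobp had 12.86, 12.53, 12.61, 12.51 and 12.11 after risperidone, against 12.70, 12.70, 13.26, 13.03 and 12.84 after haloperidol and 12.47, 13.01, 12.63, 12.59 and 12.41 after vehicle. Its difference between risperidone and haloperidol was -0.38 (SE 0.12, interval -0.63 to -0.14, adjusted p = 0.0773), and it was called without risperidone replicate 1 or without haloperidol replicate 1. For Mbp it was -0.13 (SE 0.06, interval -0.24 to -0.01, adjusted p = 0.215). In hippocampus 28 of 31 genes were above haloperidol (median 0.07) with 0 called (0% of all probe sets) and 0 at an unadjusted p under 0.05 (5.91% of all). In striatum 13 were above (median -0.01) with 0 called (0.0161% of all) and 0 at an unadjusted p under 0.05 (4.47% of all). Intervals for single genes were wide, for Opalin in striatum from -0.39 to 0.54, so equal levels were not shown.

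An interaction term asked whether a drug's difference from vehicle depended on the region. For risperidone 0 of 31 genes were called for striatum minus frontal cortex (2.94% of all probe sets), striatum minus hippocampus (1.66%) and hippocampus minus frontal cortex (1.32%), and 0 had an unadjusted p under 0.05 (21.5%, 19% and 15.5% of all in the same order). Haloperidol gave 0 called genes in the same 3 contrasts (0.0269%, 0% and 0% of all probe sets) and 0 at an unadjusted p under 0.05 (7.41%, 7.36% and 8.4% of all). The larger medians of risperidone in hippocampus and of haloperidol in frontal cortex were therefore not shown to be particular to a region.

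The spread between rats of 1 group was large for these genes. The standard deviation (SD) within groups had a median of 0.23 log2 over the 31 genes and of 0.13 over all probe sets tested. It was highest for Opalin (0.39) and Mal (0.37), a proteolipid of myelin rafts, and lowest for Mbp (0.086) and Omg (0.091). Deviations were therefore also averaged over genes. The mean deviation of the 29 mature genes from the mean of their region was from -0.36 to 0.27 on the risperidone arrays of frontal cortex, from -0.14 to 0.49 on the haloperidol arrays and from -0.52 to 0.01 on the vehicle arrays. In hippocampus the ranges were 0.01 to 0.18 for risperidone, -0.30 to 0.30 for haloperidol and -0.36 to 0.09 for vehicle, and in striatum -0.30 to 0.34, -0.19 to 0.29 and -0.25 to 0.01 in the same order. The 5 risperidone arrays of hippocampus were thus the only group wholly above the mean of its region. Of the 5 arrays per group, 3, 5 and 3 risperidone arrays lay above it in frontal cortex, hippocampus and striatum, as did 3 haloperidol arrays in each region and 1 vehicle array in each region.

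Single rats could stand high in 1 region and low in another. Haloperidol replicate 4 was the highest array of frontal cortex (0.49) and stood at -0.30 in hippocampus and -0.12 in striatum. Risperidone replicate 5 stood at -0.36 in frontal cortex, 0.01 in hippocampus and 0.34 in striatum. Of the 15 rats, 4 lay above the region mean in all 3 regions (haloperidol 3 and 5, risperidone 2 and 3), 4 in 2 regions, 3 in 1 region and 4 in none (haloperidol 1, vehicle 1, 4 and 5).

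**Figure D2:**
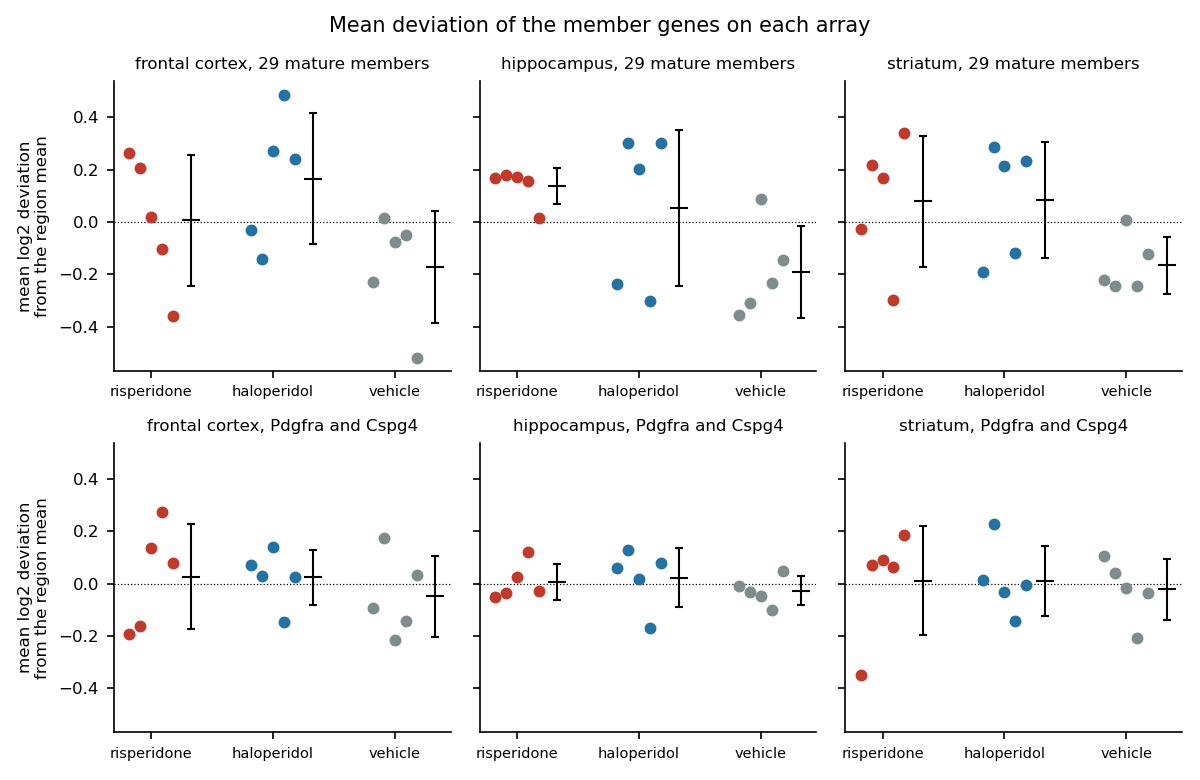
Mean log2 deviation from the region mean on each array, for the 29 mature genes (upper row) and for Pdgfra and Cspg4 (lower row), with group means and SD bars (n = 5 rats). The mature genes of vehicle rats lie at or below 0.09 in every region, and those of haloperidol rats split to both sides of 0 in hippocampus.

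Markers of other cell types were read on the same arrays. After risperidone, the 9 microglial genes had a median difference of 0.18 in frontal cortex, 0.08 in hippocampus and 0.07 in striatum, and the 8 astrocyte genes -0.01, 0.10 and 0.06. The 7 endothelial genes had medians of -0.23, -0.24 and -0.14 in the same order, and the 8 general neuronal genes -0.08, -0.07 and 0.06. After haloperidol these medians were 0.06, 0.03 and 0.07 for microglia, -0.02, 0.01 and -0.03 for astrocytes, -0.08, -0.04 and -0.08 for endothelial cells and -0.04, -0.03 and 0.06 for neurons. Choroid plexus and meningeal genes had a median of 0.62 in hippocampus after risperidone and 0.31 after haloperidol. In frontal cortex after risperidone, olfactory bulb genes had a median of 0.85, with 4 of 6 called higher (1.51% of all probe sets), and genes of striatal projection neurons had a median of 0.28. In striatum, pyramidal neuron genes had a median of 0.44 after risperidone, with 1 of 9 called higher, against 165 of all 18609 probe sets. After haloperidol their median was 0.48, with 0 called. In striatum after risperidone, 1 of 8 astrocyte genes and 1 of 8 general neuronal genes were also called higher. Without the 8 arrays high in markers of a neighboring tissue, 28, 31 and 30 oligodendrocyte and myelin genes lay above vehicle after risperidone in frontal cortex, hippocampus and striatum (medians 0.16, 0.33 and 0.10), and 30, 31 and 31 after haloperidol (0.34, 0.23 and 0.30). The arrays left out included risperidone replicates 1, 2 and 5 of frontal cortex, 3 of hippocampus and 3 and 5 of striatum. In frontal cortex the risperidone values then rested on replicates 3 and 4 alone. The part of tissue makeup in these differences was not tested.

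A second list of 50 oligodendrocyte genes outside the 34, of which 40 passed the filter, was read for comparison. After risperidone 31, 36 and 36 of the 40 lay above vehicle in frontal cortex, hippocampus and striatum, with medians of 0.15, 0.23 and 0.20. Of all probe sets 54.0%, 55.3% and 42.6% did. After haloperidol 37 of the 40 lay above vehicle in each region, with medians of 0.22, 0.15 and 0.22. The shares of all probe sets were 34.6%, 47.5% and 41.2%. Gamt, which makes creatine, was the only one called against vehicle: it rose by 0.34 in frontal cortex (SE 0.10, adjusted p = 0.0370) and by 0.37 in striatum (SE 0.10, adjusted p = 0.0211) after risperidone. That is 1 of 40 in each of these regions, where 3.4% and 3.65% of all probe sets were called. Between the drugs in frontal cortex, Itpr2, a calcium channel of intracellular stores, was lower after risperidone than after haloperidol (-0.40, SE 0.09, adjusted p = 0.0301), as was Nfasc, an adhesion protein of the node and paranode (-0.30, SE 0.07, adjusted p = 0.0386). These were 2 of 40, against 0.768% of all probe sets called.

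In vehicle rats 28 of 31 were called higher in striatum than in frontal cortex, against 18.3% of all probe sets, and 0 were lower. The median difference was 0.72, against -0.06 for all probe sets. All 5 striatal arrays lay above all 5 cortical arrays for 27 genes, against 18.3% of all probe sets. With each array centred on its median 28 were again called higher (19.1% of all probe sets). Each of the 3 lipid and acetate enzymes, the 4 transcription factors and the 9 other oligodendrocyte proteins was called, and 12 of 13 myelin proteins. The 3 genes that were not called were Omg and the precursor markers Cspg4 and Pdgfra. Over the same comparison 7 of 8 general neuronal genes were lower in striatum (median -0.60), against 27.8% of all probe sets, and the part of these neuronal markers in the result was not tested.

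Ugt8 had log2 values of 9.91, 9.92, 10.38, 9.86 and 9.85 in striatum, 8.96, 9.11, 9.69, 9.25 and 9.18 in hippocampus and 8.70, 8.73, 8.77, 8.81 and 7.96 in frontal cortex of the vehicle rats. The 3 regions did not overlap, and the difference between striatum and frontal cortex was the largest of the 31 genes, at 1.39 (SE 0.16, 2.62-fold, adjusted p = 4.10e-10). Fa2h, which hydroxylates the fatty acids of galactolipids, had 8.95, 9.05, 9.37, 9.05 and 9.09 in striatum, 8.45, 8.40, 9.04, 8.58 and 8.66 in hippocampus and 7.77, 8.08, 8.22, 8.12 and 7.36 in frontal cortex. Striatum exceeded frontal cortex by 1.19 (SE 0.14, 2.28-fold, adjusted p = 9.21e-10), and 1 hippocampal array reached into the striatal range. Nkx6-2, a homeodomain factor of differentiating oligodendrocytes, had 7.38, 7.30, 7.66, 7.53 and 7.56 in striatum, 6.96, 7.25, 7.52, 7.26 and 7.23 in hippocampus and 6.18, 6.25, 6.47, 6.43 and 5.79 in frontal cortex. Both other regions lay wholly above frontal cortex, striatum by 1.26 (SE 0.13, 2.40-fold, adjusted p = 1.49e-11) and hippocampus by 1.02 (SE 0.13, adjusted p = 4.02e-09).

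Myrf had 8.58, 8.49, 8.74, 8.52 and 8.76 in striatum, 8.27, 8.15, 8.57, 8.22 and 8.35 in hippocampus and 7.40, 7.81, 7.72, 7.74 and 7.14 in frontal cortex. It was higher by 1.06 in striatum (SE 0.14, adjusted p = 9.12e-09) and by 0.75 in hippocampus (SE 0.14, adjusted p = 6.84e-06) than in frontal cortex. Mag, which links myelin to the axon, and Mog, a protein of the outer myelin surface, were higher in striatum by 1.12 (SE 0.15) and 1.01 (SE 0.16), and were named after their values were seen. Mal had 11.43, 11.09, 11.58, 11.30 and 11.38 in striatum, 10.77, 10.43, 11.28, 10.77 and 10.85 in hippocampus and 10.49, 10.56, 10.62, 10.75 and 9.89 in frontal cortex, with a striatal excess over cortex of 0.89 (SE 0.19, adjusted p = 1.05e-04). Tspan2, a tetraspanin of myelin, had 11.11, 11.11, 11.29, 11.17 and 11.36 in striatum, 10.58, 10.70, 11.23, 10.83 and 11.00 in hippocampus and 10.47, 10.83, 10.75, 10.75 and 10.21 in frontal cortex (striatum over cortex 0.60, SE 0.15, adjusted p = 4.85e-04). For both, hippocampus and frontal cortex overlapped.

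The smallest differences among the called genes were those of Mbp, Sirt2, Olig1 and Qdpr. Mbp had 14.11, 14.19, 14.25, 14.17 and 14.22 in striatum, 14.09, 14.15, 14.29, 14.11 and 14.29 in hippocampus and 13.84, 14.05, 13.95, 13.92 and 13.74 in frontal cortex, a difference of 0.29 between striatum and cortex (SE 0.05, 1.22-fold, adjusted p = 5.52e-06). Its chosen probe set averaged 14.15 over all arrays, where the highest value of the whole table was 14.79. The other 2 Mbp probe sets differed by 0.78 and 0.57 in the same comparison, and the other 2 of Mobp by 1.54 and 1.02, against 0.73 for the chosen one, so the size of a difference depends on the probe set. Olig1, a basic helix-loop-helix factor, had 10.55, 10.70, 10.79, 10.56 and 10.74 in striatum, 10.54, 10.69, 10.84, 10.59 and 10.73 in hippocampus and 10.06, 10.58, 10.17, 10.20 and 10 in frontal cortex (striatum over cortex 0.47, SE 0.10, adjusted p = 7.59e-05). Sirt2 had 10.33, 10.25, 10.32, 10.22 and 10.43 in striatum and 9.89, 10.09, 9.97, 9.92 and 9.77 in frontal cortex (0.38, SE 0.07, adjusted p = 2.12e-05). Qdpr had 11.27, 11.19, 11.32, 11.30 and 11.24 in striatum and 10.82, 10.88, 10.80, 10.94 and 10.49 in frontal cortex (0.48, SE 0.11, adjusted p = 1.19e-04). Ndrg1 had 9.94, 10.03, 10.22, 10.01 and 9.89 in striatum, 9.82, 9.94, 10.05, 9.95 and 9.85 in hippocampus and 9.20, 9.39, 9.19, 9.42 and 8.69 in frontal cortex. Both other regions exceeded cortex wholly, striatum by 0.84 (SE 0.12, adjusted p = 9.99e-08) and hippocampus by 0.74 (SE 0.12, adjusted p = 1.03e-06).

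The genes that did not follow the others were Omg and the precursor markers. Omg, a glycoprotein of myelin that neurons also make, had 10.96, 11.05, 11.16, 10.97 and 11.07 in striatum, 11.17, 11.11, 11.18, 11.04 and 11.17 in hippocampus and 11.27, 11.15, 11.23, 11.23 and 11.16 in frontal cortex. It was lower by 0.17 in striatum than in cortex (log2 difference -0.17, SE 0.05, adjusted p = 0.0058), which is under the 1.2-fold minimum. Pdgfra, the receptor for PDGF on precursor cells, had 9.88, 9.78, 9.64, 9.69 and 9.87 in striatum, 10.12, 10.10, 9.99, 10.03 and 10.19 in hippocampus and 9.68, 10.16, 9.73, 9.78 and 9.92 in frontal cortex. Cspg4, the NG2 proteoglycan, had 5.98, 5.96, 5.98, 5.54 and 5.72 in striatum, 6.16, 6.14, 6.21, 6.07 and 6.21 in hippocampus and 5.87, 5.93, 5.58, 5.68 and 5.89 in frontal cortex. For both, striatum lay wholly below hippocampus and overlapped frontal cortex. Striatum was lower than hippocampus by the test, with differences of -0.31 for Pdgfra (SE 0.08, adjusted p = 6.46e-04) and -0.32 for Cspg4 (SE 0.09, adjusted p = 0.00185), and relative to the median of all probe sets these were -0.01 and -0.02.

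The precursor markers overlapped between drug and vehicle in every region. Pdgfra in frontal cortex had 9.68, 9.78, 10.06, 10.08 and 9.80 after risperidone and 10.03, 9.91, 10.01, 9.64 and 9.84 after haloperidol. In hippocampus it had 9.98, 10.13, 10.29, 10.24 and 10.02 after risperidone and 10.21, 10.23, 10.10, 9.94 and 10.09 after haloperidol. In striatum Pdgfra had 9.52, 9.60, 9.96, 9.81 and 9.95 after risperidone and 9.97, 10.14, 9.79, 9.55 and 9.82 after haloperidol. Both drug groups thus reached above and below single vehicle rats in each region. Cspg4 in frontal cortex had 5.68, 5.64, 5.96, 6.21 and 6.10 after risperidone and 5.86, 5.89, 6.02, 5.81 and 5.95 after haloperidol. In hippocampus it had 6.21, 6.10, 6.05, 6.29 and 6.22 after risperidone and 6.21, 6.32, 6.23, 6.02 and 6.36 after haloperidol. In striatum Cspg4 had 5.43, 6.19, 5.87, 5.97 and 6.08 after risperidone and 5.71, 5.96, 5.80, 5.82 and 5.82 after haloperidol, with risperidone replicate 1 the lowest of all.

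**Figure D3:**
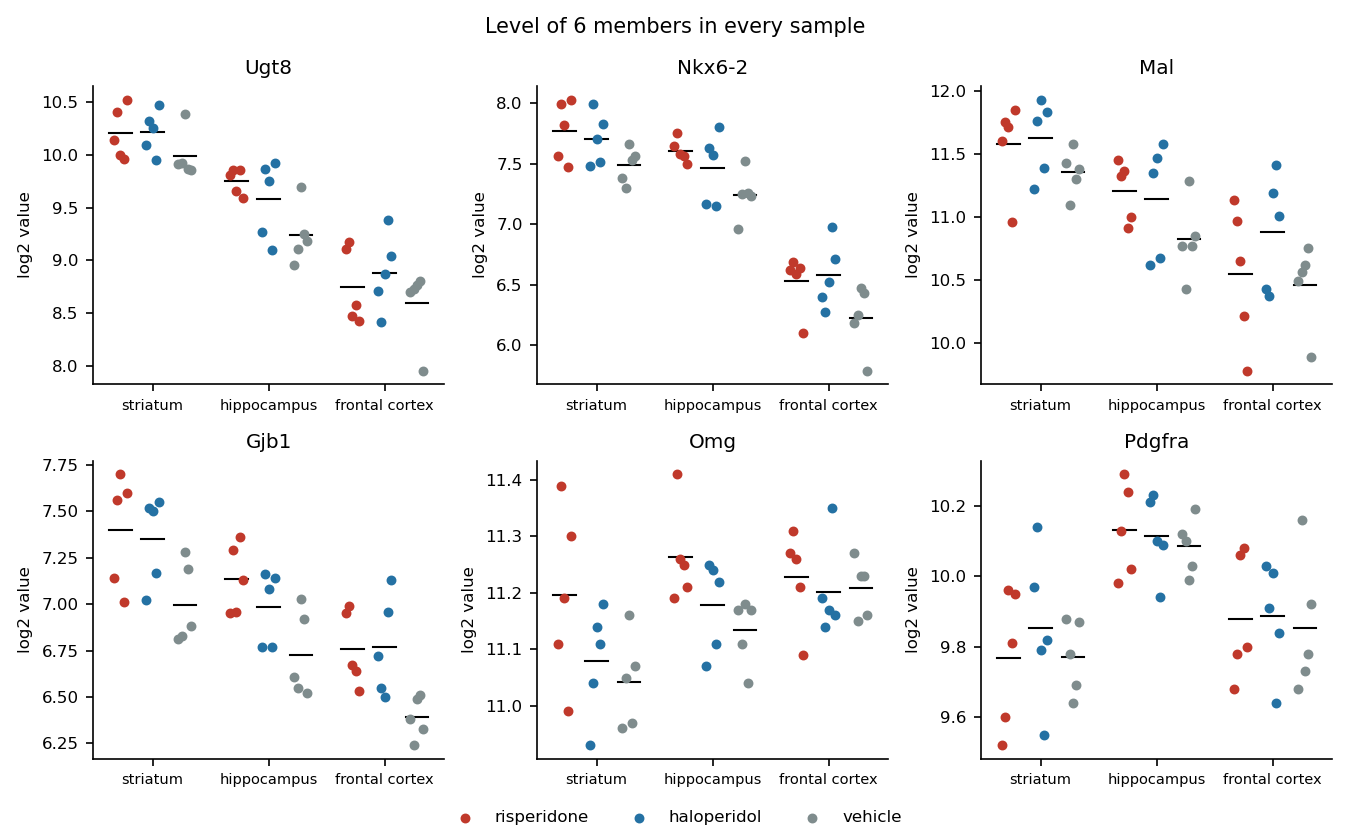
Log2 values of 6 genes in every sample by region and treatment, with group means as bars. Ugt8, Nkx6-2, Mal and Gjb1 step down from striatum through hippocampus to frontal cortex in vehicle rats, Omg spans 10.93 to 11.41 over all samples, and Pdgfra has its highest means in hippocampus.

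In hippocampus of vehicle rats 27 of 31 genes were called higher than in frontal cortex, but so were 46.7% of all probe sets. The median difference was 0.50 and that of all probe sets 0.25. For 20 genes all hippocampal arrays lay above all cortical arrays, against 51.7% of all probe sets. With each array centred on its median, 8 genes were called higher (14.6% of all probe sets) and 1, Omg, lower. Nkx6-2 was highest relative to the median of all probe sets (0.77), followed by Myrf (0.50), Ndrg1 (0.49) and Fa2h (0.46). Tspan2 (0.27, adjusted p = 0.102), Mal (0.36, adjusted p = 0.0924), Pdgfra (0.23, under 1.2-fold) and Omg (-0.07, adjusted p = 0.206) were not called.

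Between striatum and hippocampus of vehicle rats 14 of 31 genes were called, against 62.5% of all probe sets in either direction. Of these, 12 were higher in striatum, against 8.59% of all probe sets, and Cspg4 and Pdgfra were lower. The median difference was 0.25, against -0.30 for all probe sets, and 29 of 31 genes lay above that median. With each array centred on its median, 26 genes were called higher in striatum (20% of all probe sets) and 0 lower, and the precursor markers were no longer called. Ugt8 (0.75, SE 0.16, adjusted p = 4.91e-05), Mal (0.53, SE 0.19, adjusted p = 0.0122), Fa2h (0.48, SE 0.14, adjusted p = 0.00221) and Ermn (0.48, SE 0.16, adjusted p = 0.00825) differed most. Only Ugt8 had all striatal arrays above all hippocampal arrays, which 7.81% of all probe sets had. Olig1 (-0.01), Sirt2 (-0.03), Qdpr (-0.06) and Mbp (0.00) differed by less than their standard errors. A second probe set of Mobp (0.18, adjusted p = 0.295) and of Cnp (0.24, adjusted p = 0.151) was not called, whereas the chosen ones were (0.31 and 0.30). The count of 14 fell to 9 without vehicle replicate 1, 2 or 5, and to 9 without the block for rat. The shares of all probe sets called under these settings are not given here.

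**Figure D4:**
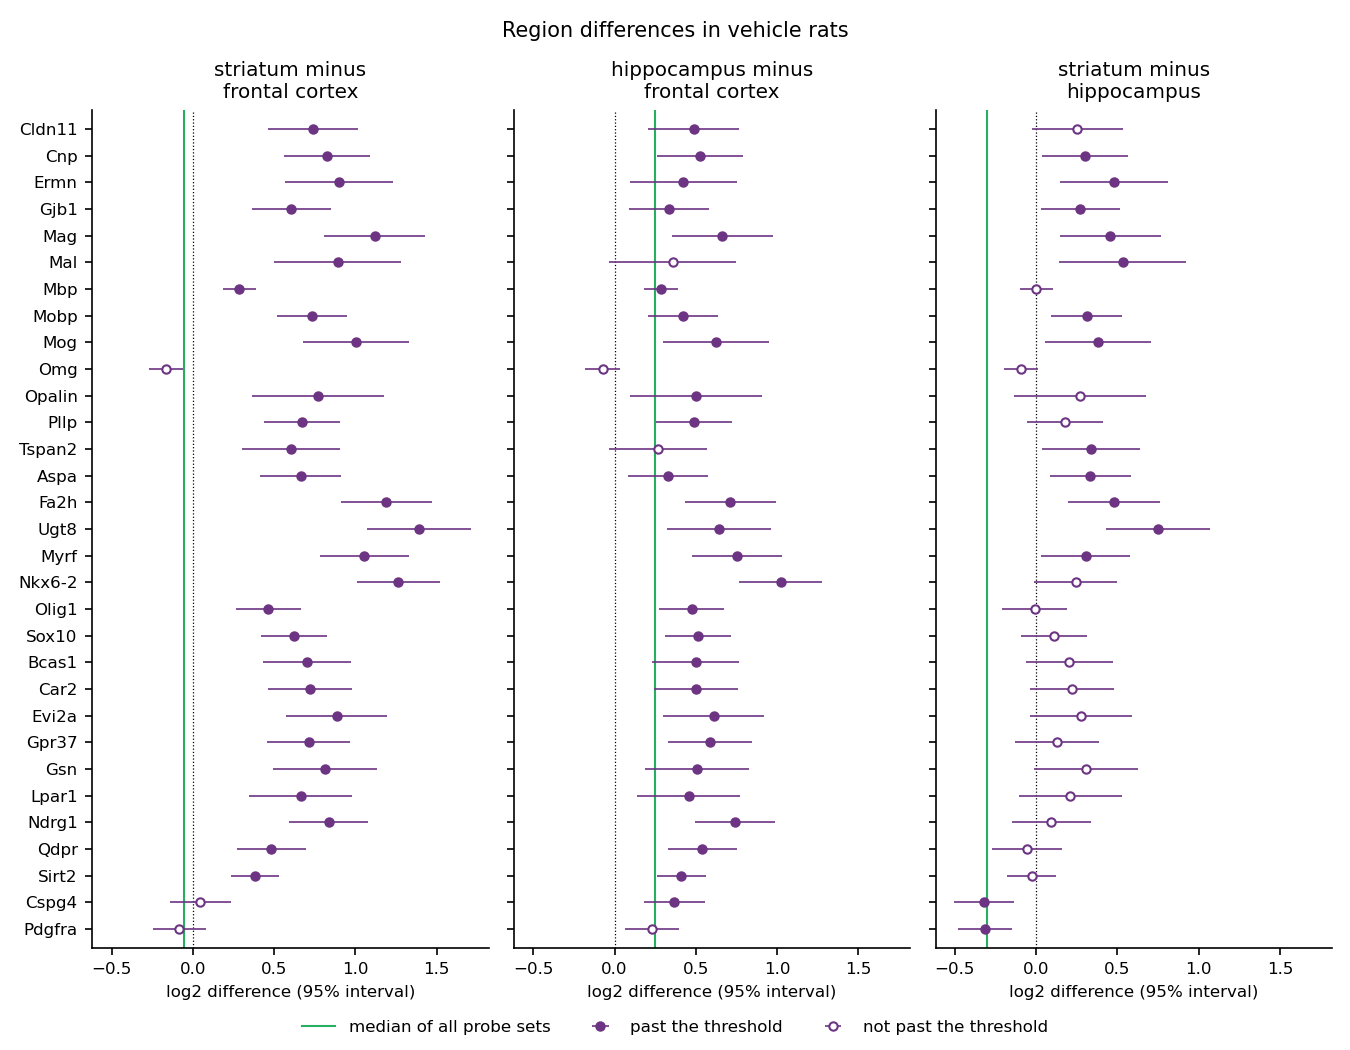
Region differences in vehicle rats on the log2 scale for the 31 tested genes with 95% intervals, filled where called, with the median of all probe sets as a green line. In striatum minus frontal cortex 28 genes are filled and the green line stands at -0.06, while it stands at 0.25 for hippocampus minus frontal cortex and at -0.30 for striatum minus hippocampus.

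The region differences were also present in the treated rats. In striatum against frontal cortex 28 genes were called higher in risperidone rats (13.9% of all probe sets) and 27 in haloperidol rats (16.4%), and 27 were called in all 3 treatments. In hippocampus against frontal cortex 28 were called higher in risperidone rats (45.3%) and 23 in haloperidol rats (51.7%), with 22 in all 3 treatments. In striatum against hippocampus 7 were called in risperidone rats (65.9% of all probe sets), 5 of them higher (7.11%), and 13 in haloperidol rats (64.1%), 11 of them higher (7.01%). Those higher in all 3 treatments were Ugt8, Mag, Ermn, Gjb1 and Fa2h, and those lower were Cspg4 and Pdgfra. Counts in treated rats depended on single rats: hippocampus against frontal cortex had 11 called in haloperidol rats without replicate 2 and 14 without replicate 5, and striatum against hippocampus in risperidone rats had 2 called without replicate 5, 3 without replicate 2, 4 without replicate 3 and 12 without replicate 4. The shares of all probe sets called without these rats are not given here.

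In the second list of oligodendrocyte genes, 30 of 40 were called higher in striatum than in frontal cortex of vehicle rats (18.3% of all probe sets) and 2 lower (27.8% of all), with Klk6, a protease of oligodendrocytes, at 1.75, Apod, a lipid carrier, at 1.46, and Enpp2, which makes lysophosphatidic acid and is also abundant in choroid plexus, at 1.45. Lingo1, a receptor component that neurons also make, was lower by the largest margin, at -2.30 (SE 0.12, adjusted p = 4.62e-20). Against frontal cortex hippocampus was higher for 29 (46.7% of all probe sets, whose median was 0.25) and lower for 1 (6.48% of all), with Cd82, a tetraspanin, at 1.2, followed by Hapln2, a link protein of nodes (0.96), Klk6 (0.90) and Pmp22, a membrane protein best known from peripheral myelin (0.86). Between striatum and hippocampus 9 were higher (8.59% of all probe sets) and 5 lower (53.9% of all, with a median over all of -0.30), with Lingo1 at -1.65, Enpp2 at 1.29, Klk6 at 0.85 and Apod at 0.69.

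Olig2 stayed under the filter, with log2 values from 5.22 to 5.83 in striatum, 5.64 to 6.15 in hippocampus and 5.19 to 5.6 in frontal cortex over all treatments, and was not tested.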

How the data were processed

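The authors hybridized RNA of 3 regions of 15 rats to the Affymetrix rat array and deposited a table of linear RMA intensities per probe set, made in R 2.7.2 per the submitters' processing notes. These intensities were log2 transformed here. Arrays give no read depth, so the number of rats limits the precision. Of 31099 probe sets, 20832 carry 1 gene symbol in the platform annotation, 436 several and 9831 none. Probe sets with a mean under the 40th percentile (5.88) were left out, which kept 18609. All 9 groups were fitted together with limma 3.58.1 (R 4.3.3), with rat as a random block (duplicateCorrelation, consensus 0.23) and eBayes, and p-values were adjusted by the Benjamini-Hochberg method over all 18609. All p-values and 95% intervals of single genes come from this limma fit and are two-sided. Tables were made with Python 3.11.15 and pandas 2.3.3, and the fit was tested on simulated data.

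The genes and lists were chosen with earlier results of these data known. The rule for naming genes took those called in a drug comparison (there were none), those with the 3 largest and 3 smallest absolute differences in each region comparison of vehicle rats, the brightest gene of each role and the precursor markers. Values of every sample are given for these in the vehicle rats, and in all rats for the precursor markers; the rule asked for all groups, and for the others drug values are given only where a drug comparison is described. Other named genes were chosen after their values were seen. Alternatives were centring each array, quantile normalization, no filter, a filter at the 60th percentile and the mean of all probe sets of a gene. Others were no fold minimum, no block for rat, array weights and leaving out each rat. A further one used 15 arrays alone, those of a region for drug comparisons and those of a treatment for region comparisons. A fixed block was another: replicate number within each region for drug comparisons, and the rat for region comparisons and interactions. Leaving out the 8 arrays high in markers of another tissue was added after seeing the data.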

Additional observations from a re-analysis of the deposited data

Results flagged for a closer look

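In 6 of 144 groups of 5 samples (4.2%), 1 sample stood apart from the other 4 by more than Dixon's critical value of 0.71, and chance gives about 1 in 20. Nkx6-2 was lowest in frontal cortex of risperidone replicate 5, at 6.10, with the others at 6.59 to 6.69. Ugt8 was lowest in frontal cortex of vehicle replicate 5, at 7.96, with the others at 8.70 to 8.81, and highest in striatum of vehicle replicate 3, at 10.38, with the others at 9.85 to 9.92. Omg was highest in frontal cortex of haloperidol replicate 4, at 11.35, with the others at 11.14 to 11.19. The mean deviation of the mature genes was lowest in hippocampus of risperidone replicate 5, at 0.01, with the others at 0.16 to 0.18. The mean deviation of the precursor markers was lowest in striatum of risperidone replicate 1, at -0.35, with the others at 0.06 to 0.19.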

How the results depend on the processing

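Of the alternative counts of called genes, 590 kept their side or size, 12 were larger and 16 smaller by the limits used. Many of the 590 were counts of 0 in drug comparisons and interactions that stayed at 0. Counts above 0 were kept if within a fixed ratio of the main one. Of the differences of named genes 2826 kept their side of the threshold, 8 passed it, 21 no longer passed it and 1 reversed. A reversal was counted only where the gene was called in the main fit or the alternative. Uncalled genes that changed sign are among the 2826, such as Sirt2 (0.25) and Qdpr (0.22) between striatum and hippocampus of vehicle rats with centred arrays. Shares of all probe sets under alternative settings are given above only for centred arrays of vehicle rats. With array weights 6 genes were called after risperidone in hippocampus, and 3 between striatum and hippocampus of risperidone rats. With each array centred on its median, hippocampus against frontal cortex had 9 called in vehicle rats and 7 in haloperidol rats, and striatum against hippocampus had 24 in risperidone rats, 26 in haloperidol rats and 26 in vehicle rats. Quantile normalization gave 15 and 7 in the first of these comparisons and 27 in each treatment in the second. Centring removes the difference of the region medians by construction. It reversed Olig1 between striatum and hippocampus of vehicle rats, to 0.26. Without the arrays high in markers of another tissue, an alternative chosen after seeing the data, striatum against hippocampus of risperidone rats had 3 called, and the cause was not tested.

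Leaving out each rat in turn gave 0 to 3 called after risperidone in striatum, 0 to 1 between risperidone and haloperidol in frontal cortex, 9 to 14 between striatum and hippocampus of vehicle rats, 2 to 12 of risperidone rats and 9 to 15 of haloperidol rats, and 11 to 28 between hippocampus and frontal cortex of haloperidol rats. Without the block for rat, striatum against hippocampus had 4 called in risperidone rats and 9 in vehicle rats. Same-numbered rats of different treatments had a median correlation of deviations of -0.02, with 12 of 45 over 0.1, so the numbers do not pair the rats. With rat as a fixed block, 13 were called between striatum and hippocampus of vehicle rats. With replicate number as a block within each region, 0 were called in every drug comparison. Interactions could not be had from the arrays of 1 region alone. Over all settings, risperidone left 27 to 31 genes above vehicle in striatum, 28 to 31 in hippocampus and 27 to 31 in frontal cortex, and after haloperidol 27 to 31 in frontal cortex and 28 to 31 in hippocampus and striatum. Their median difference moved more: after risperidone it ran from 0.10 to 0.33 in striatum, 0.29 to 0.42 in hippocampus and 0.10 to 0.27 in frontal cortex, and after haloperidol from 0.21 to 0.31, 0.18 to 0.34 and 0.25 to 0.41 in the same order.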
